A study of Homo sapiens with 8 samples.

Results

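Very wide accessible regions were examined in MCF10A cells, an established line of immortalized, non-tumorigenic human mammary epithelial cells. A wide region was selected on the width of its peaks: it held at least 1 single ATAC-seq peak of 2000 bp or more in any of 4 peak lists, and wide peaks of different lists that shared 1 bp or more were merged. This gave 2161 wide regions out of 126658 merged accessible regions (1.71%), from 6053 wide peaks among 429018 peaks (1.41%). ATAC-seq cuts and tags DNA that a transposase can reach. Parental MCF10A cells were exposed to solvent, which the labels place at time 0, or to 5 ng/ml of the cytokine TGFβ1 for 6, 24 or 72 h, with 2 replicates per condition and 8 libraries. Each condition has a single peak list, which the authors called on both of its replicates together.

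The list, and not the library, is therefore the unit of every value below. Differences between conditions could not be checked against replicates, and no p-values were computed. Because both the width and the score of a peak chose or track the members, their levels are descriptions. Read totals are not in the lists, which leaves the depth unknown, and a more deeply sequenced condition would have wider peaks and higher scores. Intervals for shares are 95% Wilson intervals and cover counting error over regions, which are not replicates of a condition. MCF10A is a single cultured line, and its response was not set beside other cells here.

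Most accessible sites are short gaps in the nucleosome array where transcription factors bind. Broad accessible intervals typically lie over CpG island promoters, where a run of nucleosomes is absent or unstable around the transcription start site (TSS), or over stretches of clustered enhancers, where many factors bind side by side. TGFβ1 signals through its receptors to SMAD proteins and drives mammary epithelial cells into an epithelial-mesenchymal transition (EMT), in which cells loosen their junctions and remodel their matrix. SMADs act together with other factors, among them AP-1, the dimer of JUN and FOS family proteins.

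Windows from 5 wide regions, 3 with an AP-1 motif and 2 with a GC box, are printed because these motifs are counted below and the windows differ in base composition. Of the 3 with AP-1, only that of the LAMB3 intron is from a region over 3 kb from any start, since the other two regions hold alternative starts. All are the summit with 100 bp on each side, outside exons, on GRCh38 and the + strand. They were chosen after their values were seen. In the windows of the CAMK1G/LAMB3 region (chr1:209607453-209607653), of a LAMB3 intron (chr1:209641521-209641721) and of a TGFBI intron (chr5:136053679-136053879), the capitals mark the AP-1 motif TGACTCA or its reverse complement TGAGTCA.
CAMK1G/LAMB3: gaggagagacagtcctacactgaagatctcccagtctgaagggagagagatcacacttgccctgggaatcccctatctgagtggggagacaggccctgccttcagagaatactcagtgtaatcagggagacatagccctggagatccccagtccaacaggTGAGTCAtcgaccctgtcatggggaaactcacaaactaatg
LAMB3: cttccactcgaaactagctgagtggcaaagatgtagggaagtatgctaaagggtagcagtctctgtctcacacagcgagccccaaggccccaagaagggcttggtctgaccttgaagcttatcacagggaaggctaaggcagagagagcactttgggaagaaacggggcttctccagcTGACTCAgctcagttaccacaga
TGFBI: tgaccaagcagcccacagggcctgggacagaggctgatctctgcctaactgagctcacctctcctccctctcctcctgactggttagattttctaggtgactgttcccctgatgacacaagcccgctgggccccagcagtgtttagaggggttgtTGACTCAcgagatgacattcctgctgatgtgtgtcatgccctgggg

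In the windows at the promoters of FOS (chr14:75277151-75277351) and JUND (chr19:18281736-18281936), the capitals mark the GC box GGGCGG, the letters that SP and KLF factors recognize, or its reverse complement CCGCCC.
FOS: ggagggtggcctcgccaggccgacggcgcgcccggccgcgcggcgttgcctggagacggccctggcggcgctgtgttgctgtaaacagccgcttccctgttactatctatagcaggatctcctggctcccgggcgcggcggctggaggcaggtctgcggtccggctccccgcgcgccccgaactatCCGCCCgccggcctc
JUND: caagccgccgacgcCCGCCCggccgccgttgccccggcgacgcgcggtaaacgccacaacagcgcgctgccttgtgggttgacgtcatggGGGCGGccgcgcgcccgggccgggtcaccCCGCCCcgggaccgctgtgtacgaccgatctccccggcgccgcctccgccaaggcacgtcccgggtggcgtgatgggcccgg

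The FOS and JUND promoter windows had a GC content of 73.6% and 78.1% and held 27 and 35 CpG dinucleotides. The CAMK1G/LAMB3, LAMB3 and TGFBI windows had 52.7%, 52.7% and 56.7% and held 1, 3 and 2. Each window carried its motif once, except that of JUND, in which the GC box occurred 3 times.

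Wide peaks were a small share of every list. Solvent had 1182 (1.37% of the list), and after 6, 24 and 72 h of TGFβ1 there were 1964 (1.82%), 1605 (1.36%) and 1302 (1.12%). They held more of the covered bases than of the peaks, with 6.63% in solvent and 8.58%, 6.77% and 5.69% after 6, 24 and 72 h of TGFβ1. The 6 h list was thus the richest in wide peaks, and at 72 h their share of the list was below that of solvent. The widest single peak measured 7294 bp in solvent and 10953, 20177 and 19900 bp under TGFβ1, in order of time, and all of these lay in the same region next to LAMB3. In any list, 346 regions reached 3000 bp, 98 reached 4000 bp and 34 reached 5000 bp.

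Wide regions fell into 2 large sets by the lists in which they were wide. A common set of 928 regions was wide in all 4 lists. Another 986 were wide in at least 1 TGFβ1 list but not in solvent, of which 358 were wide at 6 h alone, 215 in all TGFβ1 lists, 97 at 24 h alone and 33 at 72 h alone. Only 28 were wide in solvent alone. Most of the 986 were already broad in solvent, where 608 had a peak of 1500 bp or more, 84 had only peaks under 1000 bp and 9 had no peak, and their median solvent width was 1639 bp. The limit cuts a continuous range, with 365 regions whose widest peak was under 2100 bp and 488 regions just outside it, at 1900 bp or more. The median solvent width was 1870 bp just inside and 1761 bp just outside, and at 6 h it was 2030.5 bp and 1932 bp.

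The score of a peak is its area under the curve (AUC), the area of the significance signal above the threshold of the peak caller, which grows with width. Summed over the peaks of a region, its median over the wide regions was 6161 in solvent and 7990, 7451 and 6874 after 6, 24 and 72 h. Wide peaks were also higher per base. The median AUC per base was 2.90 in wide peaks and 2.03 in all other peaks in solvent, 3.37 and 2.23 at 6 h, 3.27 and 2.25 at 24 h, and 3.12 and 2.19 at 72 h.

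Wide regions were mainly promoters. Of the 2161, 1965 (90.9%, 95% CI 89.6 to 92.1) were proximal, meaning that some part of them came within 3 kb of a TSS or reached into a 5' UTR or first exon. A wide interval reaches a TSS more easily, so the share was also taken at the summit of the strongest peak alone, and was 88.9%. By the first definition, regions of intermediate width, whose widest peak was 1000 bp or more but under 2000 bp, were proximal in 72.4% of cases and all regions without a wide peak in 33.6%. A TSS of a protein-coding gene lay inside 81.4% of wide regions, 56.8% of the regions of intermediate width and 11.0% of all others. With the canonical transcript of each gene alone, these shares were 73.4%, 49.5% and 7.99%, and 8.01% of wide regions held only alternative protein-coding starts.

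The wide regions took in the starts of 2047 protein-coding genes, 10.2% of all such genes and 14.8% of those with a start in any accessible region. Most held the start of 1 gene (1447 regions), 286 held those of 2 genes, and 193 held canonical starts on both strands, the arrangement of a divergent promoter. In the 1363 regions with a single canonical start, the median extent was 1000 bp upstream and 1397 bp downstream of it, and 66.3% (95% CI 63.7 to 68.7) reached farther into the gene than away from it. The strongest summit lay in an intron in 36.0% of wide regions, between genes in 28.4%, in a 5' UTR in 22.1%, in another exon in 11.9% and in a 3' UTR in 1.67%. The remaining 196 wide regions were distal, and 91 of all wide regions were over 10 kb from any start, the farthest at 90650 bp. By chromosome, wide regions were 2.51% of the merged regions on chromosome 19, the highest share, and 0.516% on X, the lowest.

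Sequence was not used to choose the regions, and it divided along the same line. Proximal wide regions had a median GC content of 62.5% and a CpG ratio, the observed number of CpG dinucleotides over that given by their C and G content, of 0.726, which is the range of CpG islands. Distal wide regions had a median GC content of 52.3% and a CpG ratio of 0.236. Among regions without a wide peak the CpG ratio was 0.299 proximal and 0.177 distal, but in the regions of intermediate width it was 0.719 and 0.207. The CpG-rich promoter sequence thus belonged as much to the next narrower class as to the wide regions.

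Motifs were counted on both strands within 100 bp of the strongest summit, where a match is a description and not a bound site. The GC box was present in 64.3% (95% CI 62.2 to 66.4) of proximal and 18.4% (13.6 to 24.4) of distal wide regions, against 58.8% and 11.9% of the regions of intermediate width and 26.3% and 5.43% of all regions without a wide peak. The AP-1 motif showed the opposite division, with 9.31% (8.11 to 10.7) of proximal and 38.8% (32.2 to 45.8) of distal wide regions. In regions without a wide peak the AP-1 shares were 22.9% and 37.6%, so that distal wide regions carried AP-1 about as often as other distal sites while proximal ones carried it less often. In proximal regions of intermediate width the share was 11.0%. Over whole regions, 1322 of the 2161 had no AP-1 motif at all, and the largest number, 8, was in the CAMK1G/LAMB3 region.

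**Figure D1:**
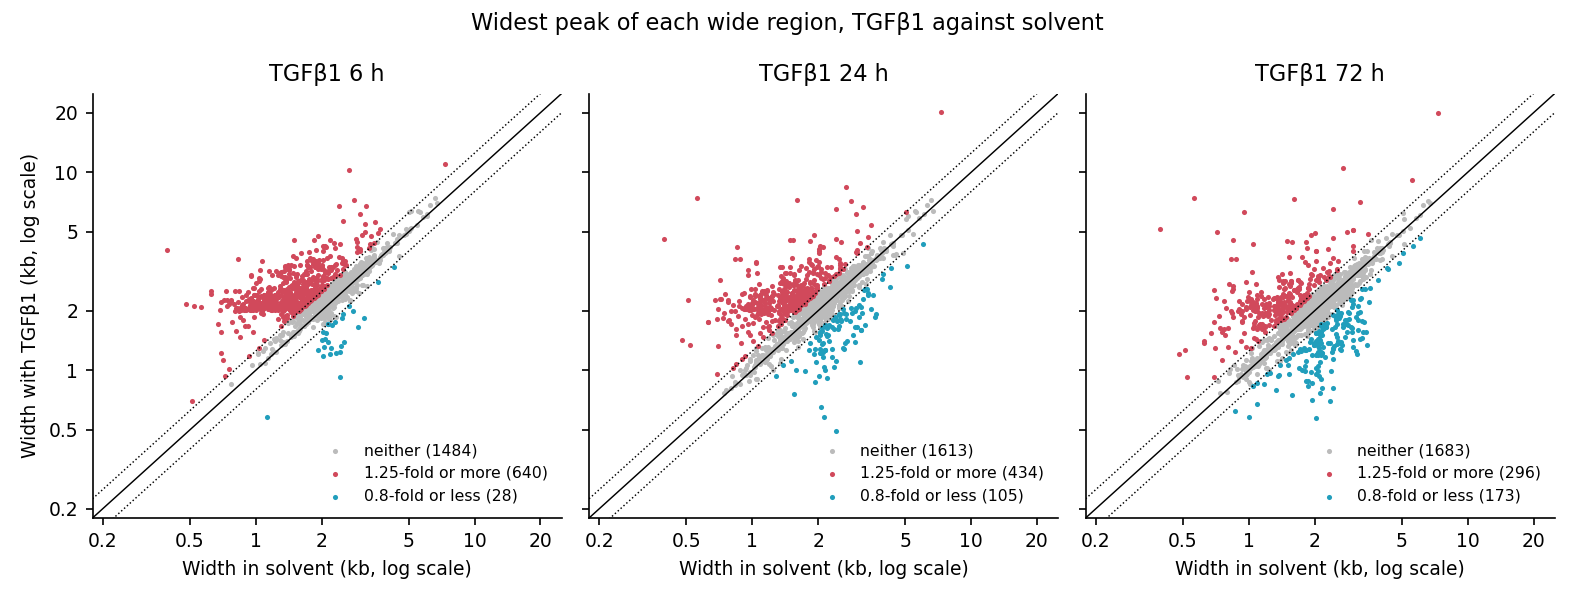
Width of the widest peak (kb, log scales) of each wide region with a peak in both lists, solvent on the x axis and TGFβ1 for 6, 24 or 72 h (left to right) on the y axis. The solid line marks equal width and the dotted lines the limits of the calls, 25% wider and 20% narrower. Red points, the widened regions, number 640, 434 and 296, and blue points, the narrowed regions, 28, 105 and 173.

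Under TGFβ1 more wide regions widened than narrowed, most at 6 h. Among the regions wide in solvent, this held at 6 h alone. A region was called widened when its widest peak was at least 25% wider than in solvent, and narrowed when it was at least 20% narrower. Of the 2152 wide regions with a solvent peak, 640 (29.7%), 434 (20.2%) and 296 (13.8%) had widened after 6, 24 and 72 h. Over all accessible regions with a peak in both lists, the widened shares were 30.0%, 30.1% and 27.6%. The share among wide regions was thus near that of all regions at 6 h and lower at 24 and 72 h. Regions of intermediate width lay between, at 29.8%, 24.2% and 18.6%.

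Narrowing went the other way. Over the 3 times, in order, it was called in 28 (1.30%), 105 (4.88%) and 173 (8.04%) of the wide regions, whereas over all accessible regions it was called in 0.972%, 2.69% and 4.16%. In regions of intermediate width the narrowed shares were 0.754%, 3.11% and 5.62%. The choice of members enters these shares, since 3 of the 4 lists that could contribute a wide peak were TGFβ1 lists. Of the 1175 regions wide in solvent, only 6.55%, 4.09% and 2.98% widened at 6, 24 and 72 h and 2.13%, 7.83% and 11.1% narrowed. Among these regions narrowing was thus called more often than widening at 24 and 72 h. The direction at these times depends on the list that chose the members. Chosen by the TGFβ1 list of the comparison alone, 31.1%, 22.9% and 16.8% widened and 0.204%, 1.252% and 1.47% narrowed.

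The typical wide region hardly changed in width. The median log2 ratio of the widest peak to solvent was 0.12, 0.04 and 0.01 at 6, 24 and 72 h, beside 0.14, 0.14 and 0.11 over all regions. AUC moved more, with median log2 ratios of 0.38, 0.26 and 0.13 in wide regions beside 0.51, 0.50 and 0.39 in all regions. Summed AUC was above solvent in 99.2%, 96.6% and 88.3% of wide regions. AUC was not scaled between lists and its shift ran through nearly all regions, so depth and TGFβ1 cannot be told apart in it.

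Both calls mostly recorded neighboring peaks that fused or parted. Of the regions widened at 6, 24 and 72 h, 521 (81.4%), 341 (78.6%) and 241 (81.4%) covered 2 or more separate solvent peaks. The gaps between those peaks had medians of 133, 129 and 128 bp, with quartiles of 112 and 202 bp at 6 h. Gap lengths also depend on how close the peak caller lets separate peaks lie, which was not examined. Among widened regions of intermediate width, joining accounted for 41.2%, 37.9% and 38.7%. The bases covered by peaks accordingly grew less than the width. At 72 h the median widest-peak ratio of the widened regions was 1.62 and the median ratio of covered bases 1.16.

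In the 173 regions narrowed at 72 h the solvent peak had fallen into 2 or more pieces in 152 (87.9%), the median widest-peak ratio was 0.638, and the median ratio of covered bases was 0.927. The median AUC ratio in these regions was 1.04, and 65 of the 173 had a summed AUC below solvent. By covered bases in place of the widest peak, 11.3%, 8.74% and 5.90% of wide regions had widened and 0.279%, 1.21% and 1.86% had narrowed at 6, 24 and 72 h.

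Many of the wide regions called widened at 6 h were not so called at 72 h. Over all accessible regions the widened share was 30.0% at 6 h and 27.6% at 72 h, and its persistence by region is not given here. Widening held at all 3 times in 211 regions, while 388 widened at 6 h were no longer so at 72 h and 27 of the regions widened at 6 h had narrowed by 72 h. Another 44 widened at 72 h but not at 6 h, and 11 narrowed at all 3 times. In all, 1227 regions were never called. The widest peak of a region was found at 6 h in 1248 cases, at 24 h in 553, at 72 h in 212 and in solvent in 139. Members could be chosen through the 6 h list alone, as 358 were, so the choice of members enters these counts. Where a region held a single canonical start that lay in the widest peak of both lists, widened regions gained more bases downstream than upstream in 66.3% (6 h), 70.4% (24 h) and 61.7% (72 h) of cases. Narrowed regions likewise lost more bases downstream, in 7 of 9, 29 of 43 and 66 of 86 cases.

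The widened share was larger in distal than in proximal wide regions, but this was not particular to wide regions. At 6, 24 and 72 h, 42.6%, 28.7% and 25.6% of 195 distal regions with a solvent peak had widened, beside 28.5%, 19.3% and 12.6% of 1957 proximal ones. Their narrowed shares were 1.54%, 6.67% and 10.8%, beside 1.28%, 4.70% and 7.77%. Among the distal regions, the AP-1 motif was at the summit of 32 of the 50 that widened at 72 h (64.0%, 95% CI 50.1 to 75.9), 37 of the 124 that were not called (29.8%, 22.5 to 38.4) and 7 of the 21 that narrowed (33.3%, 17.2 to 54.6). In distal regions of intermediate width the corresponding AP-1 shares were 45.4%, 39.4% and 29.7%. Of the distal regions of this class, 1493, 1292 and 1140 had widened at 6, 24 and 72 h. In the same order, 1940, 2023 and 2093 were not called and 31, 146 and 229 had narrowed. Their widened shares were thus above the 29.8%, 24.2% and 18.6% of the whole class. Distal and proximal shares over all accessible regions are not given here. Several of the distal wide regions lie side by side at the same genes and are not independent. Besides those at LAMB3, the widest distal regions lay in GTF2IRD1 and at MEF2D, a gene of a muscle and neuronal transcription factor. The GTF2IRD1 region measured 5440 bp in solvent and 5446, 4863 and 5233 bp under TGFβ1. The MEF2D region overlaps that gene but has its summit between genes, and measured 3047, 4837, 3269 and 3384 bp.

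Of the 6 epithelial adhesion and keratin genes with a wide region, LAMB3, ITGB4 and KRT5 widened at each of the 3 times, and CDH3, DSP and PKP3 were never called. Beside this small list, 29.7%, 20.2% and 13.8% of wide regions and 30.0%, 30.1% and 27.6% of all regions widened at 6, 24 and 72 h. DSP, which encodes the desmosome protein desmoplakin, measured 2236, 2244, 2236 and 2226 bp, and PKP3, the gene of another desmosome protein, 2229, 2243, 2230 and 2229 bp. CDH3, which encodes P-cadherin, measured 1983, 2026, 2039 and 2036 bp. The widest of all wide regions, at chr1:209604633-209624821, spans the downstream part of LAMB3, which encodes the β3 chain of laminin-332, the basement membrane protein on which basal epithelial cells anchor, and the neighboring kinase gene CAMK1G. It holds only alternative, non-canonical starts of both genes. In solvent it consisted of 3 peaks, the widest 7294 bp. That peak was 10953 bp at 6 h, and a single interval of 20177 bp at 24 h and 19900 bp at 72 h, and its summed AUC was 20917 in solvent and 57526, 66530 and 75561 under TGFβ1. Values in every TGFβ1 list were thus above solvent.

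This region was the largest of 7 consecutive wide regions within 54320 bp at LAMB3. Together they were covered over 26261 bp in 14 peaks in solvent, and over 45933, 47625 and 48729 bp in 10, 8 and 7 peaks at 6, 24 and 72 h. Next to it, a region in LAMB3 introns named for the nearest start, MIR4260, widened from 1609 to 3893, 7241 and 7327 bp. A further intronic LAMB3 region widened from 952 to 3002, 3228 and 6293 bp. The LAMB3 promoter itself, inside a peak of 4780 bp in solvent, measured 4836, 4830 and 4814 bp under TGFβ1. It changed little in width while these regions in the gene body widened, but its AUC was 12302 in solvent and 18179 at 72 h. Just upstream of the promoter, the widest peak measured 1815 bp in solvent and 3568, 3533 and 3543 bp under TGFβ1.

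At TGFBI, which encodes a TGFβ-induced matrix protein that binds integrins, 8 wide regions lay within 59258 bp. Their covered bases went from 6369 in solvent to 17763, 28219 and 31162 at 6, 24 and 72 h. The widest (chr5:136035866-136043328), in an intron 2417 bp from the nearest start, had only 560 bp in solvent and 2090, 7428 and 7409 bp under TGFβ1, with AUC of 2605, 7154, 18996 and 19680. Over the 3' end of the gene and beyond it, a region widened from 394 bp to 4064, 4631 and 5145 bp, and another intronic one from 876 to 1795, 3636 and 3668 bp. The canonical TGFBI promoter (chr5:136028067-136030074) was narrower, at 1691, 1713, 2001 and 2008 bp. Of all wide regions, these intronic and 3' TGFBI regions were among those with the largest width ratios, 13.2-fold, 13.1-fold and 4.19-fold at 72 h.

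Keratin and S100 genes, which make the intermediate filaments and calcium-binding proteins of epithelial cells, held further examples of fusion. At the end of KRT7, a keratin of simple and glandular epithelium, and the start of transcripts of KRT86, 6 solvent peaks of at most 2681 bp gave way to a widest peak of 10283, 8396 and 10494 bp after 6, 24 and 72 h. KRT5, a basal keratin, went from 1407 bp in solvent to 3422 bp at 6 h and back to 2110 and 2040 bp. The region with the promoters of S100A3 and S100A4, the latter a gene associated with motile mesenchymal cells, went from 2413 bp in 3 peaks to 6787, 6534 and 6508 bp in 1 peak. PLEC, which encodes plectin, the linker between intermediate filaments and hemidesmosomes, held a promoter region of 5541 bp in solvent and 6373, 6347 and 9143 bp under TGFβ1.

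Some other very wide regions were broad before TGFβ1 was added and changed little in width. The promoter of EFNA1, which encodes a membrane-bound ligand of Eph receptors, measured 6282 bp in solvent and 6824, 6842 and 6827 bp after TGFβ1. At the 3' end of the focal adhesion gene TNS4, a region holding the start of a gene without a symbol measured 6579, 7388, 7237 and 7190 bp. At MIR612, over the 3' end of NEAT1, a long RNA that scaffolds nuclear paraspeckles, the widths were 6720, 6981, 6381 and 6982 bp. The AUC there was 13558, 12927, 9158 and 15511. By contrast, ADAMTSL4, a gene for a secreted matrix protein, went from 2821 bp to 7229 and 7154 bp and then to 4988 bp, so that it widened and partly returned.

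Among regions with the largest width ratios at 72 h were also a region in ITGB4, the integrin subunit that binds laminin-332, and one in PLAU, which encodes the urokinase protease. In the ITGB4 region, which holds alternative starts of ITGB4 and GALK1, widths were 713 bp in solvent and 2268, 2849 and 4985 bp under TGFβ1, with AUC of 851, 3253, 4835 and 4305. The PLAU region, 2256 bp from the nearest start, that of C10orf55, measured 848, 1859, 4177 and 4577 bp.

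Only 9 wide regions had no solvent peak. Among them, a region beyond TGFBI next to a vault RNA gene, 11918 bp from the nearest start of TGFBI, was absent in solvent and measured 921, 2901 and 5522 bp at 6, 24 and 72 h. A region that overlaps PLEC but has its summit between genes, 23557 bp from the nearest start of PLEC, measured 1911, 3446 and 3419 bp. In ANGPTL4, which encodes a secreted inhibitor of lipoprotein lipase, a region measured 2022, 2045 and 2438 bp, with AUC of 2543, 3525 and 4675. In ZSWIM4, near MIR24-2, the widths were 2275, 2261 and 2417 bp.

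The regions that narrowed most lay elsewhere in the genome. MMP14, the membrane-bound collagenase that activates other matrix proteases, had a promoter peak of 3483 bp in solvent and 3527 bp at 6 h, but its widest piece was 2052 bp at 24 h and 1340 bp at 72 h. Its covered bases were 3483 in solvent and 3263 at 72 h and its AUC 5598 and 6075, and it lay in 3 pieces at 24 and 72 h. An intronic region of EXD3 near NRARP, a feedback inhibitor of Notch signaling, went from 2359 and 2372 bp to 1615 and 698 bp, with AUC from 5164 to 3614. PRKD2, the gene of protein kinase D2, went from 2022 and 2039 bp to 931 and 576 bp with AUC of 2221 in solvent and 2144 at 72 h.

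In 65 of the 173 regions narrowed at 72 h the summed AUC was below solvent, and the EXD3 region was one of them, with 2359 covered bases in solvent and 1421 at 72 h. RAB26, which encodes a vesicle-trafficking GTPase, went from 2417 bp to 930, 495 and 815 bp, with AUC of 3126, 2716, 1423 and 2099. A distal region named RNU6-929P, 178066 bp from the epithelial transcription factor gene TFAP2C, went from 2118 bp to 1942, 579 and 767 bp, with AUC of 3013, 2424, 1293 and 1309. A region 99542 bp from PITX1 had 2150, 1717, 1002 and 810 bp, and its AUC was 3738 in solvent and 2019 at 72 h. The loss of score was smaller in a region in ETNK2, which went from 3138 bp in solvent to 1847, 1594 and 1205 bp with AUC of 8271 in solvent and 7732 at 72 h and covered bases of 3138 and 2663. An intronic region of IFFO1, 2442 bp from the nearest start of GAPDH, went from 1949 bp to 2066, 1096 and 706 bp with AUC of 4149 in solvent and 3949 at 72 h.

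Of the 28 regions wide in solvent alone, the widest 6 were those in ETNK2 and RAB26 and another 4. A separate wide region of PLEC measured 2939 bp in solvent and 1663, 1659 and 1655 bp under TGFβ1. The promoter of MYC, the growth-promoting transcription factor, measured 2787, 1999, 1766 and 1720 bp, with AUC of 10527 in solvent and 10882 at 72 h. The starts of SBF2-AS1 measured 2423, 1235, 1118 and 1140 bp. At DGAT1, an enzyme of triglyceride synthesis, widths were 2310, 1747, 1278 and 1375 bp.

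Wide regions were then counted over lists of genes, beside the 10.2% of all protein-coding genes with a start in a wide region. A gene counted when any of its annotated starts lay in one. Of 20 immediate early and ERK feedback genes, which are switched on by growth factor signaling or restrain it, 14 had a wide region (70.0%). Of 14 EMT transcription factors 7 did, and of 20 epithelial transcription factors and splicing regulators 9. Of 27 genes of the TGFβ pathway 11 did, and of 15 AP-1 family genes 6. Of 17 mesenchymal and matrix genes 6 did, and of 20 epithelial adhesion and keratin genes 6. Among 8 long non-coding RNA genes 4 had one, among 74 genes of the histone clusters 16 (21.6%), and among 39 HOX genes 3 (7.69%). The lists are small, and a gene with more annotated starts has more chances to count.

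Of the 14 immediate early and ERK feedback genes, 0, 1 and 1 widened and 2, 2 and 1 narrowed at 6, 24 and 72 h, beside 30.0%, 30.1% and 27.6% of all regions and 6.55%, 4.09% and 2.98% of regions wide in solvent that widened, and 0.972%, 2.69% and 4.16% and 2.13%, 7.83% and 11.1% that narrowed. DUSP1, a phosphatase that switches off MAP kinases, measured 5039 bp in solvent and 5032, 5801 and 5039 bp at 6, 24 and 72 h. SPRY4, an inhibitor of receptor tyrosine kinase signaling, measured 4073, 4014, 4021 and 3656 bp, and EGR1, a transcription factor induced within minutes of a stimulus, 2967, 2958, 3025 and 2977 bp. IER2, another such gene, had 2518, 2891, 3501 and 2913 bp. DUSP6, a phosphatase specific for ERK, had 3278, 3376, 1687 and 3312 bp, where a split at 24 h alone gave the low value.

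All 6 AP-1 family genes with a wide region had a peak of over 2000 bp in solvent already. None was called widened, beside 29.7%, 20.2% and 13.8% of wide regions after 6, 24 and 72 h. With members chosen in solvent, only 7.11%, 4.40% and 3.30% widened. FOSB and JUND were called narrowed at 24 h, and FOS and FOSB at 72 h, beside 4.88% and 8.04% of wide regions. With members chosen in solvent, 7.78% and 11.1% narrowed at these times. FOS measured 4876 bp in solvent and 5192, 3906 and 3485 bp under TGFβ1, with AUC of 13019, 16395, 12890 and 10444. Its neighbor in family, FOSB, measured 3087, 3467, 2147 and 1850 bp. JUN measured 4498, 3758, 3813 and 3762 bp, short of the limit for narrowing, and ATF3 3285, 3517, 3453 and 3221 bp. JUND was at 3235, 3697, 2551 and 3213 bp, with the low value at 24 h called narrowed.

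In the TGFβ pathway list, 4, 4 and 2 of the 11 had widened after 6, 24 and 72 h, beside 29.7%, 20.2% and 13.8% of all wide regions, and none narrowed. PMEPA1, a feedback inhibitor that traps SMADs, widened late, with 1685, 1767, 2334 and 2850 bp. BAMBI, a decoy receptor, widened early, with 1513, 2565, 2104 and 1400 bp, and so did CCN2, a secreted matrix-associated factor, with 1881, 2507, 2525 and 2109 bp. KLF10, a TGFβ-inducible repressor, was at 4323, 4375, 4357 and 4331 bp, BHLHE40, a repressor of transcription, at 3538, 3565, 3997 and 3679 bp, TGIF1, a SMAD corepressor, at 3487, 3730, 3515 and 3532 bp, and SKIL, another SMAD corepressor, at 2050, 2304, 2289 and 2282 bp.

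The list of epithelial transcription factors also holds the splicing regulator ESRP2. Of its 9 genes with a wide region, 1 widened at 6 h and 2 narrowed at 72 h. Among wide regions, 29.7% widened at 6 h and 8.04% narrowed at 72 h, and among all regions 30.0% and 4.16%. ESRP2, which controls epithelial splicing, measured 3315, 3351 and 3350 bp in solvent and at 6 and 24 h but 1558 bp at 72 h, in 2 pieces with an AUC of 9688 against 9427 in solvent. FOXA1, a pioneer factor of luminal epithelium, measured 2072, 2272, 2110 and 1192 bp, with an AUC of 5903 at 72 h against 5216 in solvent. These were the 2 narrowed genes, and in both the score at 72 h was above solvent. FOXC1, which is active in basal-like breast cells, had 2802, 2983, 2974 and 2941 bp.

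Among EMT transcription factors, ZEB1, a repressor of epithelial genes, measured 1881 bp in solvent and 2771, 2324 and 1903 bp under TGFβ1. RUNX2, a Runt-domain factor of mesenchymal tissue, measured 896, 2060, 2053 and 1988 bp and was widened at each time. RUNX1, HMGA2 and SOX4 were wide throughout, the last at 2276, 2658, 2303 and 2312 bp. The 6 of 17 mesenchymal and matrix genes with a wide region had a peak of over 2000 bp in solvent already. They lay in 5 regions, and none of these was called at any time. With members chosen in solvent, calls were few too. At 6, 24 and 72 h, 7.11%, 4.40% and 3.30% widened and 2.12%, 7.78% and 11.1% narrowed. VIM, the mesenchymal intermediate filament gene, measured 2787, 2892, 2865 and 2804 bp, with AUC of 8508, 12002, 10594 and 10054, and CDH2, which encodes N-cadherin, 2343, 2519, 1899 and 2556 bp. In the promoter shared by COL4A1 and COL4A2, basement membrane collagens, the widths were 2207, 2255, 2462 and 1904 bp.

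Histone genes, which are transcribed in compact clusters, shared wide regions. The widest histone region, shared by H2AC20, H2AC21 and H2BC21, measured 4417, 4621, 3815 and 4429 bp. The 16 histone genes with a wide region lay in 9 regions. Among the HOX genes, which set position along the body axis, HOXC4 measured 1362 bp in 5 solvent peaks, 3316 and 3312 bp in 1 peak at 6 and 24 h, and 1405 bp in 5 peaks again at 72 h. None of the 3 HOX regions was called at 72 h, when 13.8% of wide regions had widened and 8.04% had narrowed.

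Wide regions also covered microRNA genes. Of 1558 RefSeq hairpins 40 touched a wide region. The mature sequences of 4 epithelial or developmental microRNAs are printed with the seed, bases 2 to 8, in capitals (RefSeq, GRCh38.p14), chosen after their values were seen.
hsa-miR-200c-3p: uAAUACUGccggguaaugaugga
hsa-miR-141-3p: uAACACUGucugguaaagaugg
hsa-miR-205-5p: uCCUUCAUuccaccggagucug
hsa-let-7b-5p: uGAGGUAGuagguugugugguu

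None of the 4 seeds is shared, although miR-200c, miR-141 and miR-205 are all known to repress ZEB1. The MIR200C and MIR141 region measured 2905, 3325, 3375 and 2984 bp, and that of MIR205 754, 1017, 2427 and 1566 bp. At MIRLET7B, a let-7 gene of differentiated cells, the region widened at every time, with 2010, 3417, 3907 and 4917 bp. It closed a row of 5 wide regions within 48295 bp at the let-7 host gene, whose covered bases were 18774 in solvent and 20202, 20243 and 21826 under TGFβ1. Within it, the region nearest to MIRLET7A3 measured 3206, 6733, 6674 and 7078 bp.

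Some wide regions were neighbors, though most were not. The share with such a neighbor in other classes of region is not given here. Of the 2161, 336 lay within 20 kb of another wide region, in 142 groups, of which 30 had 3 or more members and 9 had 4 or more. The 8 regions at TGFBI formed the largest group. At NEAT1, 5 wide regions within 31929 bp had 17224, 17171, 16277 and 17398 covered bases in solvent and at 6, 24 and 72 h, and the 5 at PLEC had 19508, 22462, 23447 and 23353. The 6 regions from GRK6 to PDLIM7, a stretch that includes the actin-binding gene DBN1, had 12750, 16185, 16032 and 14553. The TGFBI and LAMB3 groups thus gained more covered bases than the other groups named here.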

How the data were processed

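The data were 4 peak lists in narrowPeak layout on GRCh38, 1 per condition, each from 2 replicates. Per the study's methods, the authors trimmed reads with Trimmomatic, mapped them with Bowtie2, removed duplicates with Picard, discarded mitochondrial and poorly mapped reads and blacklisted regions, and called peaks with Genrich on both replicates together. The submitters' processing notes name Bowtie2 2.4.5, Genrich 0.5, SAMtools 1.4.1 and Trimmomatic 0.38. The deposited score of a peak is the AUC that the authors' peak caller gave it, with a limit of 200, and it was not scaled between lists. The deposited −log10 p and −log10 q are the authors' values at the summits, and the smallest −log10 q was 2.81. The labels place solvent at time 0, whereas the study also describes the control as solvent-treated for 72 h. Depth is unknown.

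Width was column 3 minus column 2 of the list. In each list, the widest peak touching a region by 1 bp gave its width, and AUC was summed over all of them. Starts came from GENCODE 44 (252835 transcripts of 62700 genes). Motifs were searched in 201 bp around the summit of largest AUC. CpG ratios cover the whole region. Computations used pysam 0.24.0, pandas 2.3.3, numpy 2.4.6 and scipy 1.17.1 under Python 3.11.15 and were tested on simulated peaks. Intervals are Wilson intervals at 95%.

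The members, lists and rules were chosen with earlier results of these data known. Named were the 12 widest regions, the 8 of largest and of smallest ratio of 72 h to solvent, up to 6 wide in solvent alone, up to 6 without a solvent peak and up to 4 per gene list. Some of these are not reported here. EGR1, FOSB, PMEPA1, BAMBI, CCN2, SKIL, FOXA1, RUNX2, CDH3, PKP3, the LAMB3 and TGFBI promoters, the distal regions at GTF2IRD1 and MEF2D, the groups of neighbors and the microRNA regions were added after their values were seen. Alternatives covered width limits, merging, definitions of proximal, width measures, calling limits, list choice and motif windows.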

Additional observations from a re-analysis of the deposited data

How the results depend on the processing

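No paired analysis was possible because each condition has a single peak list called on both replicates, which also leaves no replicate to omit. With limits of 1500, 2500 and 3000 bp there were 5737, 799 and 346 wide regions, 86.9%, 93.1% and 93.4% of them proximal. The solvent list alone gave 1182 and the 72 h list alone 1302. The proximal share was 88.0% within 1 kb of a TSS, 88.9% by the summit and 85.9% with protein-coding TSSs. Widened shares at 6, 24 and 72 h were 11.3%, 8.74% and 5.90% by covered bases, 7.11%, 6.09% and 3.86% by the span of the peaks, 47.3%, 33.8% and 23.0% at a limit of 1.1-fold, 19.2%, 12.3% and 8.60% at 1.5-fold, 7.11%, 4.40% and 3.30% with members chosen in solvent, and 23.5%, 15.5% and 11.2% after division by the median ratio of all regions. Narrowed shares, in the same order, were 0.279%, 1.21% and 1.86%, then 0.232%, 0.790% and 1.44%, then 2.37%, 8.32% and 14.6%, then 0.651%, 2.37% and 4.32%, then 2.12%, 7.78% and 11.1%, and then 2.09%, 7.16% and 11.0%. With members chosen in the TGFβ1 list compared, 22.9% and 16.8% widened at 24 and 72 h, and 0.204%, 1.252% and 1.47% narrowed. At 2500 bp, 32.8% and 22.1% widened at 6 and 24 h, and 7.17% and 9.94% narrowed at 24 and 72 h. At 1500 bp, 0.873%, 3.86% and 6.71% narrowed. The median log2 width ratio was 0.093 at 6 h by covered bases, 0.040 and 0.023 at 6 and 24 h by span, and, with members chosen in solvent, 0.026, 0.011 and -0.00021, the only value that changed sign. Chosen in the TGFβ1 list compared, it was 0.056 at 24 h and 0.017 at 72 h, and at 1500 bp it was 0.012 at 72 h. The median log2 AUC ratio was 0.41 and 0.27 at 6 and 24 h for the widest peak, 0.28, 0.20 and 0.12 per covered base, 0.36, 0.24 and 0.11 with members chosen in solvent, 0.28 and 0.15 at 24 and 72 h at 1500 bp, and 0.25 and 0.12 at 2500 bp. Regions made of 2 or more solvent peaks were 24.3% at 1500 bp and 39.7% at 2500 bp. Over whole regions, AP-1 was found in 35.4% of proximal and 73.0% of distal wide regions. Within 500 bp of the summit the proximal CpG ratio was 0.787. The cause of these shifts was not tested beyond what each setting changes by its construction. The order of the times, with the most widening at 6 h and the most narrowing at 72 h, held in every setting listed for these shares. Without depths or replicates, small shifts between lists cannot be resolved.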
